A study of Mus musculus with 9 samples.

Results

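The 10 patterning genes described here, of 32287 gene IDs in the count matrix, were followed across the single cells of a study of interferon signalling in the adult mouse brain. They were chosen by name, as genes of dorsal-ventral position and of the Zic family: the ventral genes Nkx2-1, Nkx2-4 and Nkx6-2 with Sfta3-ps, the lateral gene Gsx2, the dorsal genes Emx1 and Pax6, and Zic1, Zic2 and Zic5. Neural stem cells (NSCs) line the lateral ventricle in the ventricular-subventricular zone (vSVZ), and the neuroblasts they produce migrate along the rostral migratory stream to the olfactory bulb. The position of an NSC on the ventricular wall, ventral, lateral, dorsal or medial, is known to be tied to the type of olfactory bulb interneuron it produces, and the position is marked by homeodomain and zinc-finger transcription factors kept from the embryo. Nkx2-1 marks embryonic ventral territory, Gsx2 the lateral ganglionic eminence, Emx1 the pallium, and Pax6 both the pallium and dopaminergic lineages of the bulb. Zic genes encode zinc-finger factors of the septum and midline.

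Droplet 3′ single-cell RNA sequencing was carried out on 4 groups of male TiCY mice with 2 mice each, and every group was 1 reaction, so that group and reaction cannot be told apart. All mice carried the Tlx (Nr2e1)-driven CreERT2, a Rosa26 eYFP reporter and the Fastm1Cgn allele and received tamoxifen, which labels Tlx-expressing cells and their progeny with eYFP. WT young mice were 16 weeks old (tamoxifen at 10 weeks, chase of 6 weeks), WT old mice 80 weeks (tamoxifen at 71 weeks, chase of 9 weeks), KO young mice 16 weeks (tamoxifen at 7 weeks, chase of 9 weeks) and KO old mice 92 to 105 weeks (tamoxifen at 85 and 98 weeks, chase of 9 weeks). For KO old, the tamoxifen ages, the chase and the labelled ages, taken from the study's methods and the labels, do not add up, and which of them is off could not be settled. The barcode names also give the WT old and KO old libraries the same age in months. KO mice were TiCY-IFNAGRKO, without the type-I and type-II interferon receptors (IFNAR-/- IFNGR-/-) in every cell. Hashtags marked the tissue and the mouse: vSVZ cells were sorted as eYFP+ and GLAST+, and cells of the rest of the brain (RoB: striatum, rostral migratory stream and olfactory bulb pooled) as eYFP+ and as eYFP-/PSANCAM low, without CD45+, Ter119+ and O4+ cells. The share of a class within a tissue was therefore set by the gates, and RoB did not separate its 3 regions.

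After filtering, 18051 cells remained, 2394 to 6462 per library, with a median of 5067 to 7437 unique molecular identifiers (UMIs) per cell. The lowest median was that of WT young, the highest that of WT old. A hashtag could be given to 5628 cells (31.2%), and 30 barcode sequences occurred in more than 1 library. In the summed astroglia, Ifnar1 lay at 17.2 to 31.4 counts per 1000000 (CPM) in WT and 0 to 5.64 in KO sums, and Ifngr1 at 66.0 to 105.3 in WT and 0 to 11.4 in KO sums. Clusters were built without the 10 genes and named from other markers. Astroglia here are the astrocyte-like and quiescent NSC-like clusters together, and their sums per mouse held 130 to 333 cells in vSVZ and 43 to 130 in RoB. All 7 astrocyte markers had UMIs in all 16 sums, and 6 or 7 of the 7 quiescent NSC markers. Because the RNA was summed over cells, fewer cells expressing a gene and less RNA per cell cannot be told apart in the tests.

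In GRCm38, Nkx2-1 (ENSMUSG00000001496.15) lies at chr12:56531958-56536908 on the minus strand, and the non-coding Sfta3-ps (ENSMUSG00000112343.1) at chr12:56488321-56529427 starts 2531 bp past its end on the same strand. Nkx2-4 (ENSMUSG00000054160.2) is at chr2:147083316-147085445, 92101 bp from its relative Nkx2-2 and on the minus strand. Nkx6-2 (ENSMUSG00000041309.17) at chr7:139579376-139582797 overlaps the end of Inpp5a on the opposite strand. Gsx2 (ENSMUSG00000035946.7) is at chr5:75075601-75077893, Emx1 (ENSMUSG00000033726.8) at chr6:85187438-85204462 and Pax6 (ENSMUSG00000027168.21) at chr2:105668900-105697364, where it overlaps the antisense Pax6os1. Zic1 (ENSMUSG00000032368.14) at chr9:91358058-91365810 overlaps Zic4 head to head. Zic5 (ENSMUSG00000041703.7) at chr14:122456795-122465677 and Zic2 (ENSMUSG00000061524.8) at chr14:122475435-122479852 are 9758 bp apart on opposite strands. Whether the counting used strand is not given in the sources used here, so reads of the overlapping pairs could have been split; Inpp5a had 1264 UMIs in all cells against 3134 of Nkx6-2, Pax6os1 had 36 against 3058 of Pax6, and Zic4 had 189 against 1541 of Zic1.

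The start regions of 8 of the 10 genes were in the RefSeq table for GRCm38.p6, and those of Nkx2-4, Nkx6-2, Gsx2 and Zic1 are shown as 4 genes with an entry there for which a difference between ages, genotypes or tissues passed its test. Each run holds the 250 bases before the RefSeq start, 5′ to 3′ on the gene's strand, at chr2:147085346-147085595 (minus), chr7:139582798-139583047 (minus), chr5:75075351-75075600 (plus) and chr9:91365769-91366018 (minus). Capitals mark a match to 1 of the motifs searched on both strands (TAATTA, homeodomain; CAAGTG, NKX2 class; CCACCCA, GLI core; CAGCAGG, ZIC; TATAAA, core promoter box).
Nkx2-4: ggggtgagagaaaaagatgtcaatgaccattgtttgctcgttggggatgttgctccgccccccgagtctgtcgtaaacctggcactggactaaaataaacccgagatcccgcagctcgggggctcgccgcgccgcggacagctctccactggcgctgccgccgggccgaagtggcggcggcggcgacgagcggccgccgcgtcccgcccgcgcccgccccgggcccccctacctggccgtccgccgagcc
Nkx6-2: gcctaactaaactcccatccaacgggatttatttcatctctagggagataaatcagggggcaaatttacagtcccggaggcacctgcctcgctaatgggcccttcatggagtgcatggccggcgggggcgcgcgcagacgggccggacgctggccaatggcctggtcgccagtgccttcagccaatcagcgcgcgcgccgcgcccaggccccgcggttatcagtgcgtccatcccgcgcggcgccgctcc
Gsx2: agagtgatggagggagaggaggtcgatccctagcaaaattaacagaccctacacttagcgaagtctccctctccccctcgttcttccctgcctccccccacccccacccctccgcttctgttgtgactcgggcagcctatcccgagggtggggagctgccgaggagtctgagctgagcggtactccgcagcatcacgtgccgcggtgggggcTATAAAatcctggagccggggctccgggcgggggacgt
Zic1: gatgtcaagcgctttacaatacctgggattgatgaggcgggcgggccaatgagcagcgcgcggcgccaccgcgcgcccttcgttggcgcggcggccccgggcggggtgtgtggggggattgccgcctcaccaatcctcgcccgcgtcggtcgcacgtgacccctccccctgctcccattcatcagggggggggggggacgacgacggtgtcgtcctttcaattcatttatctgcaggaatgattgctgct
Over 300 bases (the run and the 50 bases after the start), Nkx2-4 held 38 CpG, Nkx6-2 32, Zic1 31 and Gsx2 17, against a median of 7 over all 32851 start regions. Gsx2 had the core promoter box at -38, a motif that 13.6% of all start regions held. Outside these 4 genes, Emx1 had the ZIC motif at -248 (10.5% of all) and Zic5 the NKX2 class motif at -71 (13.6% of all), while the homeodomain motif (5.29% of all) and the GLI core (9.30% of all) were in none of the 8. The 3′ libraries measured transcripts and not these regions.

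The 10 genes took different places among the cell classes. Classes were 1072 quiescent NSC-like cells (median 6415.5 UMIs), 4688 astrocyte-like (7074), 2339 cycling progenitor-like (11895), 6363 neuroblast-like (4966) and 640 neuron-like cells (6617.5). The comparison class for free RNA was 328 microglia-like cells (5241.5), where Pax6 had a UMI in 1.22% of cells, Gsx2 and Nkx2-4 in 0.30%, and the other 7 genes in 0, which allows a share of up to 0.915%. All intervals on shares are exact binomial intervals and cover counting error only.

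Nkx2-1 and Sfta3-ps were genes of astrocyte-like cells. Nkx2-1 had a UMI in 3.31% of astrocyte-like cells (95% interval 2.81 to 3.86) and 0.75% of quiescent NSC-like cells, and in 3 of 6363 neuroblast-like cells (0.05%). Sfta3-ps followed at 1.58%, 0.37% and 0.02% in the same order. Both were above the microglia-like limit in astrocyte-like cells, and below it in the other named classes of the lineage.

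Nkx2-4 was instead highest in quiescent NSC-like cells, at 3.82%, against 0.64% in astrocyte-like, 1.37% in progenitor-like and 0.22% in neuroblast-like cells. Thinning every cell to 1000 UMIs kept this order, with 0.84% in quiescent NSC-like and 0.13% in both astrocyte-like and progenitor-like cells, although the thinned shares rest on few cells. Nkx6-2, which also acts in oligodendrocytes, had a UMI in 23.7% of quiescent NSC-like, 14.8% of astrocyte-like, 3.98% of progenitor-like and 0 of 6363 neuroblast-like cells, the last allowing up to 0.0471%. Oligodendrocyte-like cells held it in 98.5% of 133 cells and OPC-like cells in 18.5% of 81. The ventral genes were thus spread over glia and NSCs in 2 patterns, and over the 4 libraries together none passed the microglia-like limit in neuroblast-like cells.

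Gsx2 was a gene of dividing cells: 39.9% of progenitor-like cells had a UMI, against 11.7% of quiescent NSC-like, 4.07% of astrocyte-like and 2.59% of neuroblast-like cells. At 1000 UMIs per cell the shares were 7.05%, 2.80%, 0.77% and 0.49%. Within the neuroblast-like clusters, Gsx2 ranged from 0.33% to 12.4%, and the highest value was in cluster 8, led by St18, Dlx1as and Trpc4. Among the progenitor-like clusters it lay between 33.3% and 48.2%.

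Emx1 was rare everywhere, with 2.33% of quiescent NSC-like cells, 0.75% of astrocyte-like cells and 0.03% of neuroblast-like cells. Its astrocyte-like cells were concentrated in 1 cluster: cluster 19, 144 cells led by 1500015O10Rik and Islr, held Emx1 in 21.5% of cells, against at most 0.15% in the other 5 astrocyte-like clusters. Pax6 was shared out more evenly, with 15.3% of quiescent NSC-like, 15.5% of astrocyte-like, 22.4% of progenitor-like, 7.92% of neuroblast-like and 15.2% of neuron-like cells. After thinning, Pax6 lay between 2.01% and 3.12% in these 5 classes, so that the depth of the cells moves with their unthinned order.

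Within the lineage from quiescent NSC-like to neuron-like cells, Zic1 and Zic2 were highest in neuron-like cells, at 22.5% and 16.1%. They lay at 5.44% and 4.78% in astrocyte-like, 1.4% and 1.77% in quiescent NSC-like, and 2.50% and 3.16% in neuroblast-like cells. Within the same classes Zic5 was instead highest in astrocyte-like cells, at 14.4%. It was in 7.09% of quiescent NSC-like and 6.46% of progenitor-like cells against 0.85% of neuroblast-like and 1.72% of neuron-like cells. Endothelial-like cells held Zic2 in 74.3% and Zic5 in 24.8% of 101 cells, more than any of these classes, and Zic1 in 0.99%. The pair on chromosome 14 was therefore also detected in vessel cells, while Zic1 was not above the microglia-like limit by more than 1 cell there.

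**Figure D1:**
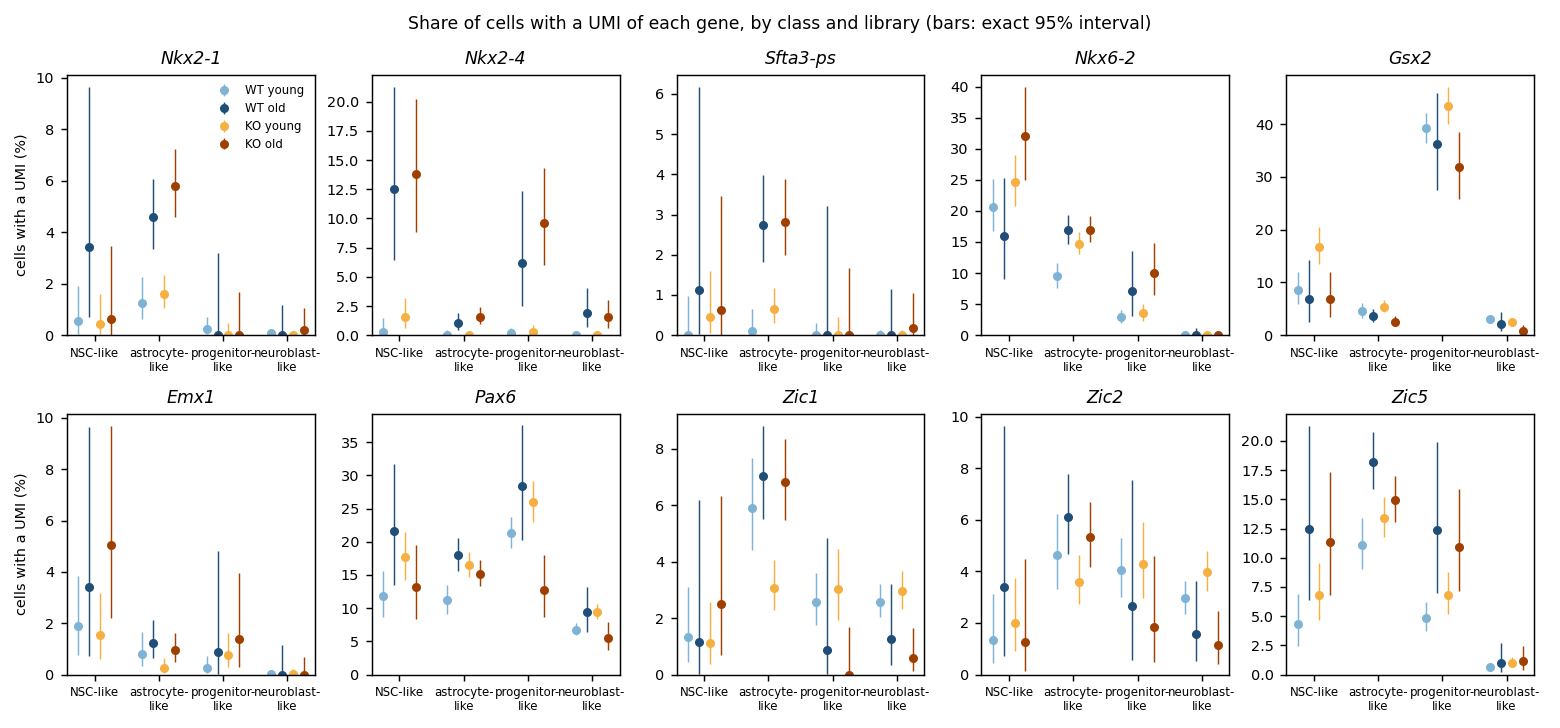
Share of cells with a UMI (%, y axis, scale differs by gene) of each of the 10 genes in 4 classes (x axis), with 1 point per library and exact 95% binomial intervals as bars. Nkx2-4 stands out by age, with 0.27% and 1.55% of quiescent NSC-like cells in the young libraries and 12.5% and 13.8% in the old ones, while Gsx2 is highest in progenitor-like cells of all 4 libraries.

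Within a class, some clusters carried a gene far more often than others, and the small astrocyte-like clusters differed most. Cluster 16, 252 cells led by Igsf1 and Itih3, held Nkx6-2 in 66.3%, Nkx2-1 in 16.7% and Sfta3-ps in 8.73% of cells, but Pax6 in 1.59%, Zic5 in 1.19% and Zic2 in 0. Cluster 19 held Pax6 in 49.3%, Zic1 in 32.6% and Zic2 in 23.6% of cells, Nkx2-4 in 5.56% and Nkx6-2 in 4.86%, and neither Nkx2-1 nor Sfta3-ps. Cluster 20, 141 cells led by Igfbp2 and Islr, held Zic1 in 35.5% and Pax6 in 27.0%, and no Nkx6-2, Nkx2-1 or Sfta3-ps. Cluster 4, with 1216 cells, held both kinds, with Nkx6-2 in 15.8%, Nkx2-1 in 6.25% and Sfta3-ps in 2.96% of cells, and Zic5 in 18.4%, Pax6 in 15.4%, Zic2 in 10.9% and Zic1 in 10.4%. The clusters therefore did not divide cleanly into ventral and dorsal or Zic ones. A count of 0 in cluster 20 allows up to 2.13% of cells, and in cluster 19 up to 2.08%.

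Among neuroblast-like clusters, cluster 14 (382 cells, led by Parm1, Kcnd3 and Sp8) held Pax6 in 28.0%, Zic2 in 27.5% and Zic1 in 21.2% of cells. In the other 4 neuroblast-like clusters Zic1 lay between 0.64% and 2.77% and Zic2 between 0.64% and 3.62%. Of the 2 neuron-like clusters, cluster 24 (53 cells, led by Calb2, a calcium-binding protein of periglomerular interneurons) held Zic1 in 81.1% and Zic2 in 66.0%, and cluster 11 in 17.2% and 11.6%. Both Zic1 and Zic2 were among the 10 leading genes of cluster 14, and Zic1 of cluster 24.

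Across the 25 clusters with enough cells, the genes whose levels were most like a member's are given as a description, since clusters share libraries and lineage. Nkx2-1 was most like Egfl6 (Pearson's r = 0.85) and Igsf1 (0.84), Nkx2-4 most like Veph1 (0.93), and Nkx6-2 most like Gpr37 (0.89), a receptor of oligodendrocytes and astrocytes. Gsx2 was most like Dtymk (0.88), a kinase in the synthesis of dTTP, and Pax6 most like Zbtb41 (0.76). Zic1 was most like the glutamate receptor gene Gria1 (0.81), Zic2 most like Apold1 (0.80), and Zic5 most like Adgrl2 (0.76), with its neighbour Zic2 next (0.75). Emx1 and Sfta3-ps had under 200 UMIs and were not compared.

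Whether 2 genes occurred in the same cell was asked next. The expected number of cells with both genes was taken within each library and within 5 strata of depth, so that deep cells or old libraries do not raise it, and ratios carry exact Poisson intervals for the observed count. Of the pairs in the 4 lineage classes, 83 had at least 2 expected cells. Clusters and tissues were not strata, so their part in the ratios was not tested.

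In astrocyte-like cells Nkx2-1, Sfta3-ps and Nkx6-2 went together. The ventral gene Nkx2-4 is not included here, and it had a UMI in 0.16% of cells of cluster 4, where Nkx2-1 was in 6.25%. Nkx2-1 and Sfta3-ps shared 28 cells against 4.09 expected (6.84-fold, 95% interval 4.54 to 9.88), so that 37.8% of the cells with Sfta3-ps also had Nkx2-1. The ratio was over 1 in all 4 libraries, with 11 shared cells in WT old, 12 in KO old, 4 in KO young and 1 in WT young. Since the genes are 2531 bp apart on the same strand, a transcript running from Nkx2-1 into Sfta3-ps and 2 separate transcripts cannot be told apart in 3′ counts. Nkx2-1 and Nkx6-2, which are on different chromosomes, shared 74 cells against 25.8 expected (2.87-fold, 2.25 to 3.6), with ratios of 2.39 to 4.12 in the 4 libraries. Sfta3-ps and Nkx6-2 shared 36 against 12.8 expected (2.82-fold, 1.98 to 3.91).

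In the same astrocyte-like cell, Nkx2-1 and Nkx6-2 met Pax6, and Nkx6-2 met Zic2, less often than expected. Nkx2-1 and Pax6 shared 5 cells against 21.0 expected (0.24-fold, 0.08 to 0.55), Nkx6-2 and Pax6 shared 61 against 107.9 (0.57-fold, 0.43 to 0.73), and Nkx6-2 and Zic2 shared 4 against 34 (0.12-fold, 0.03 to 0.30). The ratio was under 1 in all 4 libraries for these 3 pairs. Dorsal and Zic genes met more often than expected: Zic1 and Zic2 shared 63 cells against 13.2 (4.78-fold, 3.67 to 6.12), Emx1 and Zic1 shared 13 against 2.21 (5.88-fold, 3.13 to 10.05), and Emx1 and Pax6 shared 18 against 5.6 (3.22-fold, 1.91 to 5.08). Each of these 3 ratios was over 1 in the 4 libraries. Gsx2 stood between the groups, with ratios to Pax6, Zic1, Zic2 and Zic5 of 0.92 to 1.16 and intervals that include 1.

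In quiescent NSC-like cells, Nkx6-2 and Gsx2 shared 16 cells against 32.8 expected (0.49-fold, 0.28 to 0.79), and the ratio was under 1 in all 4 libraries. Nkx2-4 and Nkx6-2 shared 11 against 11.2 (0.98-fold, 0.49 to 1.76), so that neither joint nor separate use of these 2 ventral genes was detectable at this depth. In progenitor-like cells Gsx2 and Pax6 shared 248 against 226.7 (1.09-fold, 0.96 to 1.24), while Zic2 met Zic5 in 30 cells against 5.71 (5.25-fold, 3.54 to 7.50) and Pax6 in 47 against 22.3 (2.11-fold, 1.55 to 2.80). Neuroblast-like cells had a like pattern: Zic1 and Zic2 shared 45 cells against 6.85 (6.56-fold, 4.79 to 8.78), Zic2 and Zic5 shared 34 against 2.40 (14.2-fold, 9.83 to 19.8), and Pax6 and Zic2 shared 55 against 19.97 (2.75-fold, 2.07 to 3.58). The 2 old libraries added only 0 and 2 cells to the Zic1 and Zic2 pair in neuroblast-like cells.

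**Figure D2:**
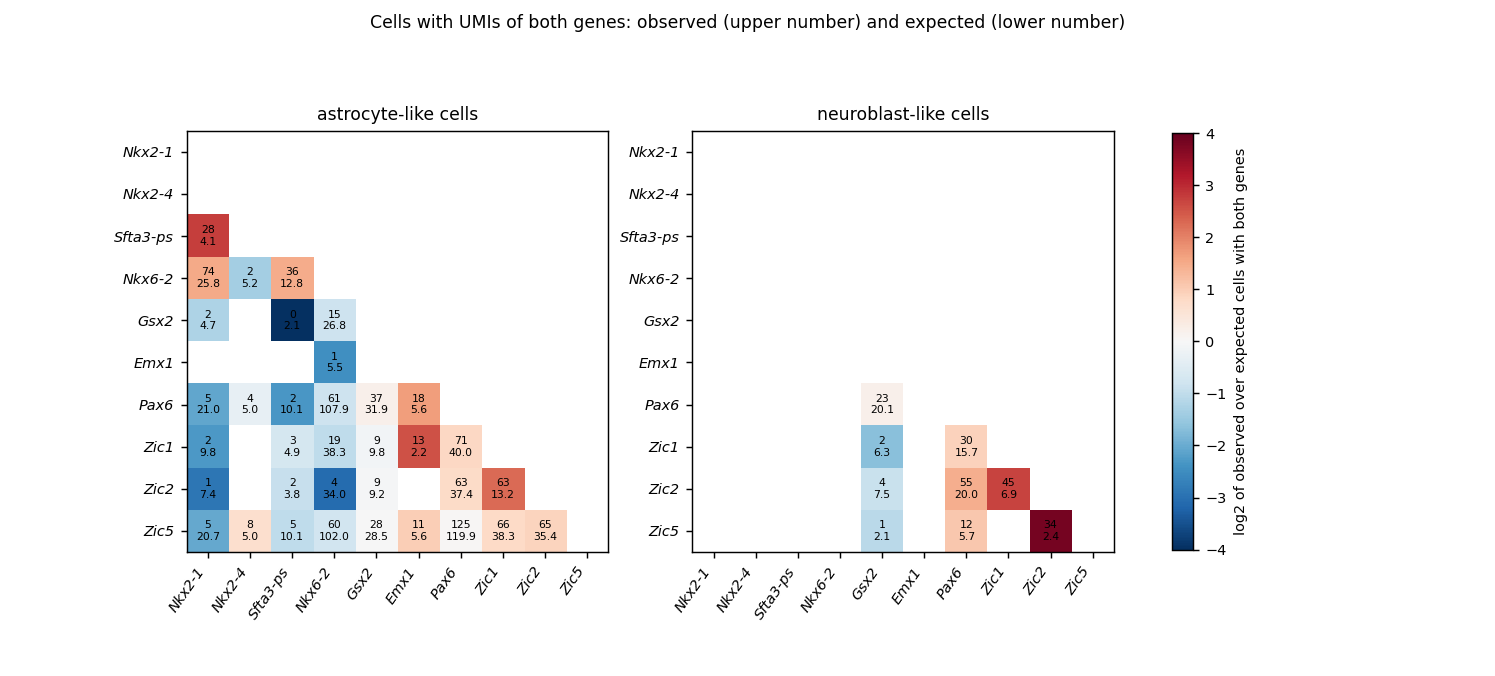
Number of cells with UMIs of both genes of a pair, observed (upper number) and expected (lower number), in astrocyte-like and neuroblast-like cells, with color for the log2 ratio and blank fields where under 2 cells were expected. Nkx2-1, Sfta3-ps and Nkx6-2 are red with each other and blue with Pax6 and the Zic genes in astrocyte-like cells, and the pair with 0 observed cells is drawn at the end of the color scale.

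The comparison of vSVZ with RoB asked where in the forebrain the genes were used, and each of the 8 mice gave both tissues. Beside eYFP+ cells, the gates differed between the tissues (GLAST+ in vSVZ, eYFP-/PSANCAM low in RoB). Tissue and gate therefore cannot be told apart in this comparison. Zic1 separated the tissues most clearly. The share of astroglia with a Zic1 UMI ranged from 0 to 3.90% in vSVZ (median 0.76%) and from 6.98% to 23.8% in RoB (median 20.9%). RoB was higher in 8 of 8 mice, and the ranges did not overlap. In summed counts Zic1 was lower in vSVZ by a log2 fold change of -3.49 ± 0.32 (SE; edgeR quasi-likelihood test with mouse as block, adjusted p = 7.41e-11). Zic1 could pass the low-count filter only through RoB, where it is high (44.5 CPM against 3.72 CPM in vSVZ over all mice). The p therefore adds little to the shares. Of the 4 members that passed the low-count filter, 3 passed the test, against 13.1% of all 8074 genes tested.

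Pax6 had a UMI in 8.59% to 19.6% of vSVZ astroglia (median 14.5%) and 14.9% to 29.9% of RoB astroglia (median 26.4%), with RoB higher in 6 of 8 mice. The exceptions were KO young mouse 1 (19.6% and 17.2%) and KO old mouse 1 (15.3% and 14.9%). Its summed level was lower in vSVZ, with a log2 fold change of -0.99 ± 0.17 (edgeR adjusted p = 2.24e-05). Zic5 was not called, with -0.51 ± 0.20 (edgeR adjusted p = 0.0905) and shares of 6.25% to 21.5% in vSVZ and 6.98% to 22.1% in RoB.

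The share of astroglia with Zic2 was 0.70% to 3.61% in vSVZ and 0 to 18.5% in RoB, with RoB higher in 7 of 8 mice and KO young mouse 2 at 0 of 43 cells. Emx1 lay at 0.41% to 1.80% in vSVZ and 1.56% to 5.36% in RoB and was higher in RoB in 8 of 8 mice, although the ranges overlapped. Both missed the low-count filter, and without that filter both were called (edgeR adjusted p = 4.40e-22 for Zic2 and 0.00126 for Emx1). Nkx2-1, Sfta3-ps, Nkx2-4 and Gsx2 also missed the filter; their mean shares differed between the tissues by at most 1.91 percentage points, with SDs of the difference over 8 mice of 1.20 to 2.03. A gene kept by the filter only through the tissue where it is high had to differ, so the count of 3 of 4 describes the tested genes alone.

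**Figure D3:**
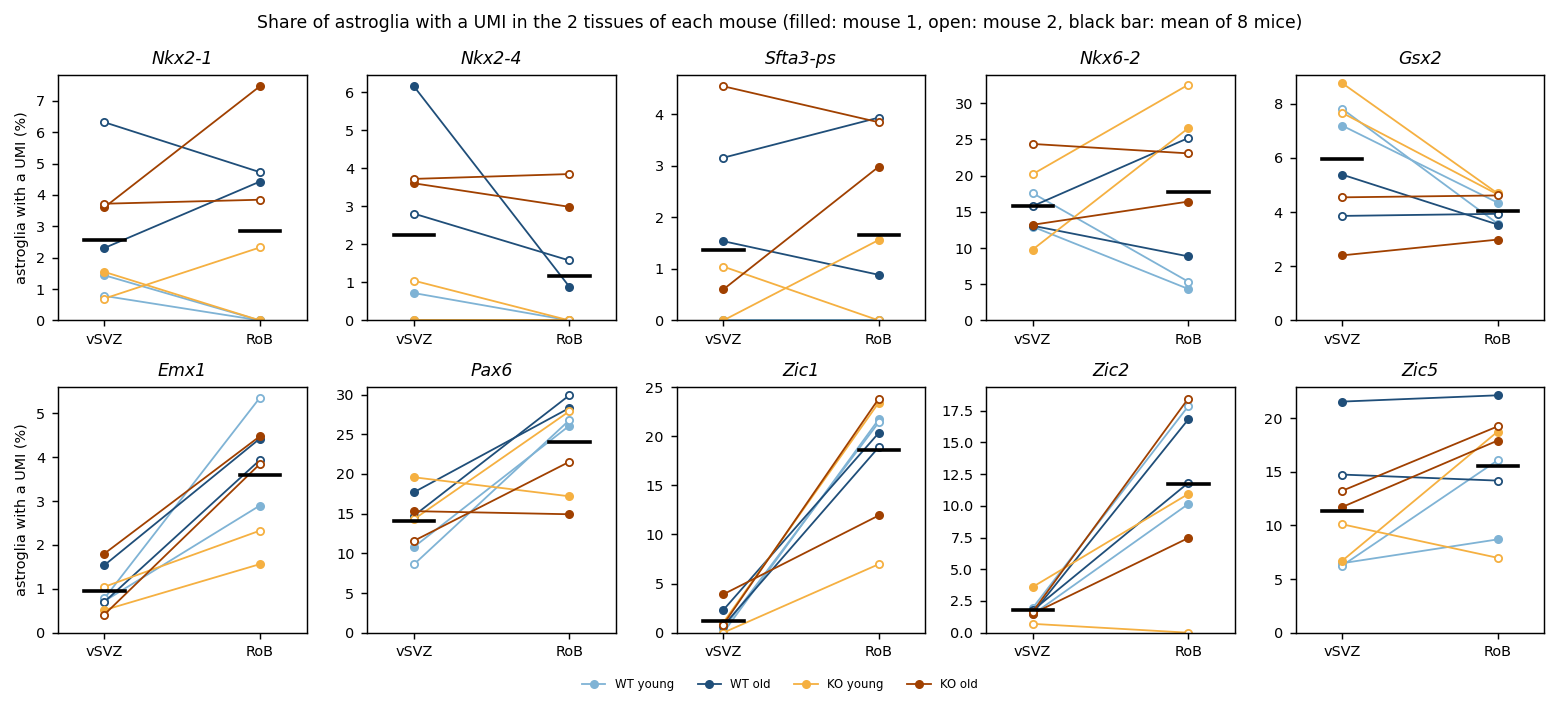
Share of astroglia with a UMI (%, y axis, scale differs by gene) in vSVZ and RoB, with 1 line per mouse colored by group (filled, mouse 1; open, mouse 2) and black bars for the mean of 8 mice. All 8 lines rise from vSVZ to RoB for Zic1 and Emx1, while the lines of Nkx6-2 cross, 4 in each direction.

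The kinds of astroglia differed between the tissues, and clusters 19 and 20 were mostly from RoB. In cluster 19, 75.0% of cells carried a RoB and 0.69% a vSVZ hashtag, and in cluster 20 the shares were 63.1% and 0. In astroglia outside clusters 16, 19 and 20, a choice made after seeing the data, Pax6 stayed lower in vSVZ (-0.66 ± 0.20, edgeR adjusted p = 0.0336). Zic1 no longer passed the low-count filter there, and its share was higher in RoB in 7 of 8 mice and 0 in both tissues of WT young mouse 1. Within cluster 4, an astrocyte-like cluster with cells of both tissues, Zic1 had a UMI in 6.90% of 232 vSVZ cells and 23.8% of 189 RoB cells, and Pax6 in 12.1% and 25.4%. Nkx2-1 in the same cluster had a UMI in 12.5% of vSVZ and 4.76% of RoB cells, and Nkx6-2 in 22.4% and 13.2%. These shares pool the mice and were not tested.

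Nkx6-2 had no single direction between the tissues. Its share was 9.79% to 24.4% in vSVZ and 4.35% to 32.6% in RoB, higher in RoB in 4 mice and in vSVZ in the other 4, among them both WT young mice. Summed over astroglia it was lower in vSVZ (log2 fold change -0.81 ± 0.23, edgeR adjusted p = 0.0132), but the call was lost without the mouse as a block (adjusted p = 0.166) and with DESeq2. Without cluster 16 the direction turned, with Nkx6-2 higher in vSVZ by 0.63 ± 0.21 (edgeR adjusted p = 0.0458). Cluster 16, where Nkx6-2 was among the leading genes, held 0 to 18.6% of RoB and 0 to 3.72% of vSVZ astroglia.

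Of the related genes, none of the 5 in the list of other Zic and midline genes passed the low-count filter. Of 10 dorsal genes 5 were tested; Emx2 (0.56) and Lhx2 (0.21) were higher in vSVZ and Dmrta2 (-2.43) in RoB, as log2 fold changes. Of the lateral genes, Six3 (1.09) and Meis2 (0.47) were higher in vSVZ, while Sp8, a factor of olfactory bulb interneurons, was higher in RoB (-4.35). Of 14 genes of ventral patterning and Shh response 6 were tested; Nr2f2 (1.02) and Crym (1.29) were higher in vSVZ, and Olig2 (-3.23) and the Shh receptor Ptch1 (-0.83) in RoB. Of 9 genes of bulb interneuron subtypes, 3 were tested and Etv1 was higher in RoB (-1.14). The medians of the dorsal, ventral and bulb interneuron lists were 0.21, -0.30 and 0.04, beside a median of 0.00 over all genes tested.

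The comparison of old with young mice within each genotype asked how age bears on the positional genes of vSVZ astroglia, and Nkx2-4 rose in both genotypes. In WT, Nkx2-4 was at 2.62 and 0 CPM in the young mice and at 20.7 and 6.08 CPM in the old mice (2 and 33 UMIs, an 11.7-fold ratio with a counting interval of 2.99 to 101). In KO, it was at 0 and 1.3 CPM in the young and at 15.5 and 8.89 CPM in the old mice (3 and 54 UMIs, 16.3-fold, 5.30 to 81.7). All 4 old mice were above all 4 young mice. The test gave a log2 fold change of 3.53 ± 0.94 in WT (edgeR adjusted p = 0.00885) and 3.92 ± 0.76 in KO (adjusted p = 0.00132), and the interaction was 0.39 ± 1.64 (adjusted p = 0.954). In WT 4 of the 7 members tested passed, against 15% of 10142 genes, and in KO 2 of 7 passed, against 4.6%. Nkx2-4 and Sfta3-ps could pass the low-count filter only through the old groups, where they are high. The counts of members that passed therefore describe the tested genes alone, and nothing is read from them against the background. For the same reason the p-values of Nkx2-4 add little to its UMI counts.

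The WT call for Nkx2-4 was lost without WT young mouse 2 (edgeR adjusted p = 0.254) and without WT old mouse 1 (0.102), and the KO call was kept without any 1 of the 4 KO mice (0.00117 to 0.0390). Nkx2-4 missed the low-count filter without the quiescent NSC-like cluster, and both calls were lost with the strict hashtag call, which keeps cells with a posterior of at least 0.99 (0.0580 in WT, 0.15 in KO). The age difference was as large within 1 cell class, the quiescent NSC-like cluster alone, chosen after seeing the data. It was 4.67 ± 0.95 in WT (edgeR adjusted p = 0.0148) and 4.69 ± 0.77 in KO (adjusted p = 0.00117). These cells are part of those in the main test, so the p-values add little to it. In this cluster, 1.39% and 0 of the cells of the WT young mice had a UMI, against 17.6% and 11.1% of those of the WT old mice. The KO young mice had 0 and 2.63%, against 16.1% and 11.1% for the KO old mice. Nkx2-4 was also seen in 6.19% and 9.59% of progenitor-like cells of WT old and KO old against 0.17% and 0.25% of WT young and KO young, and in 1.89% and 1.53% of neuroblast-like cells of the old against 0 of 2878 and 0 of 2644 of the young libraries. Each library is 1 reaction, so these shares per library carry no test.

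Sfta3-ps had 0 UMIs in both WT young mice and 4.13 and 6.08 CPM in the WT old mice (17 UMIs), at least 4.02-fold higher against a floor of 3 counts over the group (edgeR adjusted p = 0.0317). A gene at 0 in the young WT mice that was kept by the filter through the old mice had to differ, so the p adds little to the counts. In KO it was at 0 and 2.17 CPM in the young and 0.81 and 8.34 CPM in the old mice, and the groups overlapped (adjusted p = 0.380). Nkx2-1, its neighbour, was at 5.23 and 2.08 CPM in young WT mice and 4.13 and 15.9 CPM in old WT mice. In KO mice it was at 5.78 and 1.3 CPM when young and 6.92 and 8.34 CPM when old. It did not pass in either genotype, with 1.83 ± 0.68 in WT (adjusted p = 0.0649) and 1.26 ± 0.61 in KO (adjusted p = 0.293). The WT call for Sfta3-ps was lost without WT young mouse 1, WT young mouse 2 or WT old mouse 2.

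Gsx2 fell with age in both genotypes. It was at 18.3 and 20.8 CPM in young and 11.4 and 5.15 CPM in old WT mice (log2 fold change -1.45 ± 0.45, edgeR adjusted p = 0.0256), and at 23.1 and 16.5 CPM in young and 3.26 and 10.0 CPM in old KO mice (-1.61 ± 0.39, adjusted p = 0.0119). No old mouse reached a young mouse of its genotype. Quiescent NSC-like cells, which held Gsx2 more often than astrocyte-like cells, made up 39.7% to 54.7% of the vSVZ astroglia of young and 12.6% to 26.2% of old mice. In that cluster alone Gsx2 was not called, with -1.28 in WT (adjusted p = 0.472) and -1.12 in KO (adjusted p = 0.450). Without the cluster it was not called either, with -1.06 in WT (adjusted p = 0.453) and -1.15 in KO (adjusted p = 0.571). The summed level of the 8 progenitor markers in vSVZ astroglia also moved with age, from 207 to 251 CPM in young to 122 to 155 CPM in old mice, and that of the 7 neuroblast markers from 256 to 364 CPM to 112 to 170 CPM. The part of these shifts in the Gsx2 result was not tested. Leaving out single mice ended the WT call in 3 of 4 cases (WT young mouse 1, WT young mouse 2, WT old mouse 2) and the KO call in 3 of 4 (KO young mouse 1, KO young mouse 2, KO old mouse 1).

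Zic5 rose with age in WT, from 14.4 and 13.2 CPM to 41.3 and 30.4 CPM (1.33 ± 0.31, edgeR adjusted p = 0.00324). In KO it was at 10.9 and 15.6 CPM in young and 17.5 and 23.9 CPM in old mice (0.60 ± 0.28, adjusted p = 0.278), and the interaction did not pass (-0.73 ± 0.43, adjusted p = 0.490). Astrocyte-like cells, which held Zic5 more often than quiescent NSC-like cells, were the larger share in old mice. In WT the Zic5 call was lost without the quiescent NSC-like cluster (0.81 ± 0.38, edgeR adjusted p = 0.263), in that cluster alone (1.73 ± 0.68, adjusted p = 0.275) and without WT young mouse 2 (1.27 ± 0.44, adjusted p = 0.0862), with the direction kept in each. The 5 endothelial markers, of a class that holds Zic5, summed to 5.6 to 6.5 CPM in WT young and 6.6 to 9.3 CPM in WT old vSVZ astroglia. Pax6 did not pass in either genotype, with 0.65 ± 0.29 in WT (adjusted p = 0.140) and -0.15 ± 0.25 in KO (adjusted p = 0.825). Nkx6-2 did not pass either, with -0.15 ± 0.29 (adjusted p = 0.784) and 0.45 ± 0.25 (adjusted p = 0.393). Emx1, Zic1 and Zic2 missed the low-count filter in vSVZ. Without that filter, 5 members were called in WT, Nkx2-1 (edgeR adjusted p = 0.0168) beside the 4 above. In KO 3 were called, Zic1 (adjusted p = 0.00231) beside Nkx2-4 and Gsx2. Of all 17402 genes then tested, 1501 were called in WT and 561 in KO. Zic1 had 3 UMIs in the young and 31 in the old KO mice (9.38-fold, 2.93 to 48.0), and 28 of the 31 were from KO old mouse 1.

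**Figure D4:**
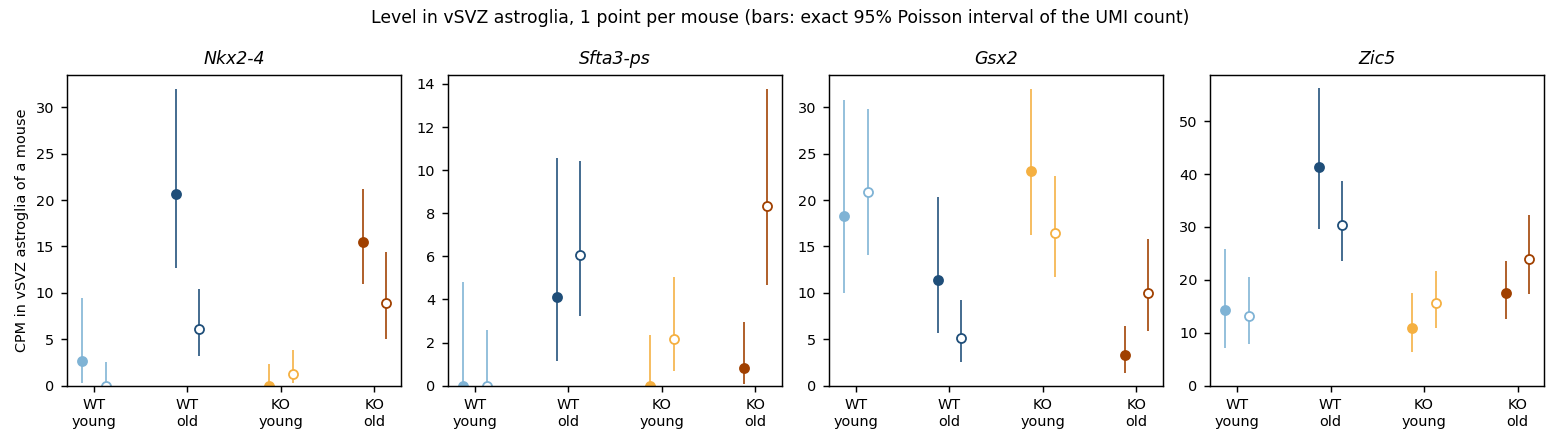
Level (CPM, y axis) of Nkx2-4, Sfta3-ps, Gsx2 and Zic5 in vSVZ astroglia by group (x axis), with 1 point per mouse (filled, mouse 1; open, mouse 2) and exact 95% Poisson intervals of the UMI count as bars. Nkx2-4 is above 6 CPM in all 4 old mice and under 3 CPM in all 4 young mice, and Gsx2 is lower in the old mice of each genotype.

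DESeq2 gave no adjusted p for the members called for age in vSVZ, because of its own filter on low counts. Its unadjusted p was 0.0164 for Nkx2-4, 0.0423 for Sfta3-ps, 0.0218 for Gsx2 and 0.00292 for Zic5 in WT, and 0.00443 for Nkx2-4 and 0.00510 for Gsx2 in KO.

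Other lateral genes also fell with age in vSVZ astroglia. In WT these were Six3 (-0.68), Meis2 (-0.45) and Dlx5 (-3.39), and in KO Sp8 (-2.84), Dlx2 (-2.58) and Dlx5 (-3.77). Of 7 lateral genes tested, 0 were called up in either genotype. Of all 10142 genes tested, 713 were called up in WT and 219 in KO, so nothing is read from the 0. Of 6 dorsal genes tested, Gli3 rose (0.66 in WT, 0.54 in KO) and Urah fell (-2.43 and -1.5), with list medians of 0.42 and -0.21 beside 0.03 and 0.00 over all genes. Of 6 ventral and Shh response genes tested, Ptch1 rose in both genotypes (0.67 and 0.72) and Gli2 in WT (1.5), with list medians of 0.23 and 0.35. None of the 3 tested genes of bulb interneuron subtypes passed for age. The same shift in the make-up of the astroglia and in progenitor and neuroblast markers stands beside these counts.

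The comparison of KO with WT within the young and within the old mice asked whether loss of both interferon receptors bears on the positional genes. By the labelled ages the KO old mice were older than the WT old mice (92 to 105 against 80 weeks), while the barcode names give both the same age. The young groups differed in the age at tamoxifen (7 weeks in KO, 10 in WT) and in the chase (9 and 6 weeks). Genotype therefore cannot be told apart from these here or in RoB. In vSVZ astroglia 0 of 7 members tested passed the edgeR test in young mice (2.33% of all genes called), in old mice (0.138%) or for the interaction of age and genotype (0.779%). DESeq2 called 0 in old mice and gave no adjusted p for the members in the other 2 comparisons. At an unadjusted edgeR p under 0.05 there were 0, 1 (Zic5, -0.72 ± 0.25) and 1 (Pax6, -0.80 ± 0.38). Of all 10142 genes tested, 1473, 769 and 1311 lay under it, so nothing is read from these member counts. The log2 fold changes in young mice were -0.01 for Nkx2-1, -0.22 for Nkx2-4, -0.24 for Nkx6-2, -0.02 for Gsx2, 0.39 for Pax6 and 0.01 for Zic5, and Sfta3-ps had 5 UMIs in KO and 0 in WT. In old mice they were -0.58 for Nkx2-1, 0.17 for Nkx2-4, -0.34 for Sfta3-ps, 0.36 for Nkx6-2, -0.18 for Gsx2 and -0.41 for Pax6. Emx1, Zic1 and Zic2 were not tested. Limited to the quiescent NSC-like cluster, a choice made after seeing the data, Nkx6-2 was higher in KO old than in WT old mice (2.17 ± 0.40, edgeR adjusted p = 0.0154). In this setting 6 of all 6615 genes tested were called, and the WT old sums held 34 and 36 cells. There the old mice had 25.1 and 23.2 CPM (WT; 6 and 6 UMIs) against 116 and 100.04 CPM (KO; 50 and 43 UMIs), and the young mice 64.9 and 69.8 CPM against 47.8 and 88.9 CPM. The old groups did not overlap, and the young groups did. Among the related genes Urah was lower in KO young than in WT young mice (-1.42).

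In RoB astroglia the genotypes differed in Nkx6-2. Among young mice it was at 7.18 and 12.2 CPM in WT (7 UMIs) and 140 and 214 CPM in KO (143 UMIs). Among old mice it was at 25.6 and 78.7 CPM in WT and 86.4 and 93.3 CPM in KO. Between KO young and WT young the log2 fold change was 4.18 ± 0.48 (edgeR adjusted p = 3.58e-07), against 0.493% of 7105 genes called, and the 17.9-fold ratio of UMIs had a counting interval of 8.45 to 45.2. The call was kept under 16 of 17 alternatives, the exception being without clusters 16, 19 and 20 (2.09 ± 0.64, adjusted p = 0.278). In WT, Nkx6-2 rose with age by 2.47 ± 0.56 (edgeR adjusted p = 0.0157; 1.7% of genes called). KO old did not differ from KO young past the threshold (-0.90 ± 0.27, adjusted p = 0.213; 0.225% called), nor KO old from WT old (0.82 ± 0.28, adjusted p = 0.630; 0.0422% called). The interaction was -3.36 ± 0.61 (adjusted p = 0.00601; 0.0563% called), with the old groups closer than the young ones.

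Cells of cluster 16 moved with Nkx6-2 in RoB, at 2.90% and 0 of the astroglia of WT young mice and 9.73% and 16.5% of WT old mice. The KO mice had 17.2% and 18.6% when young and 14.9% and 13.1% when old. Outside cluster 16, Nkx6-2 was at 4.89 and 12.2 CPM (WT) against 36.8 and 85.4 CPM (KO) in young mice, and at 19.4 and 23.3 CPM against 18.3 and 44.9 CPM in old mice. The young genotypes still differed (2.78 ± 0.62, edgeR adjusted p = 0.0323), while age in WT (1.37, edgeR adjusted p = 0.386) and the interaction (-2.05, adjusted p = 0.457) did not pass. The age call and the interaction were also lost without WT young mouse 1 and without WT old mouse 2, and the age call without WT young mouse 2. The summed level of the 6 oligodendrocyte markers in RoB astroglia was 33.7 to 40.7 CPM (WT) and 29.97 to 63.1 CPM (KO) in young mice and 62.6 to 86.4 CPM and 48.2 to 72.6 CPM in old mice, and Mog was at 0 in 7 of the 8 sums. Inpp5a, which overlaps Nkx6-2, was at 7.18 and 3.06 CPM (WT) against 20.6 and 25.2 CPM (KO) in young mice and at 9.60 and 12.1 CPM against 16.1 and 31.1 CPM in old mice. The part of the overlap in the Nkx6-2 result was not tested.

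The other 4 members tested in RoB, Pax6, Zic1, Zic2 and Zic5, passed in no comparison between groups, and Nkx2-1, Nkx2-4, Sfta3-ps, Gsx2 and Emx1 missed the low-count filter. Of the tested 4, the log2 fold changes lay between -1.20 and 1.05 over age and genotype. For age in KO and for genotype in old mice 0 were called, and DESeq2 called 0 in both. At an unadjusted edgeR p under 0.05 there were 2 members (Nkx6-2 and Zic5) and 1 member (Nkx6-2). Of all 7105 genes tested, 574 and 396 lay under it. Without KO young mouse 1, Nkx6-2 passed for age in KO (-1.22, adjusted p = 0.0325), and without WT old mouse 2 it passed for genotype in old mice (1.85, adjusted p = 0.00196). Of the related genes only Crym passed, for genotype in young mice (1.03), among those tested in RoB.

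The eYFP reporter gave a last view of the members in neuroblast-like cells, since it marks the progeny of cells that expressed Tlx at the time of tamoxifen. Because cells were sorted on eYFP, cells negative for it at the sort could enter only through the GLAST+ gate of vSVZ or the eYFP-/PSANCAM low gate of RoB. A cell sorted as eYFP+ can also lack an eYFP UMI, so cells without a UMI are not all untraced. The part of the gates and of depth in the eYFP shares was not tested. Cells with a UMI of a Zic gene carried eYFP UMIs less often. Of 159 neuroblast-like cells with Zic1, 39.0% had eYFP (95% interval 31.4 to 47.0) against 71.9% of those without, and the shares were 47.8% and 71.8% for Zic2 and 42.6% and 71.3% for Zic5. Pax6 followed with 58.1% and 72.2%, and Gsx2 went the other way with 88.5% and 70.6%. Cells with a Zic1 UMI were deeper than those without (median 5979 and 4941.5 UMIs), and those with Gsx2 too (7329 and 4923). In WT young the shares for Zic1 were 52.7% and 75.7% and in KO young 29.5% and 71.2%, and of the 4 WT old and 3 KO old cells with Zic1 none had eYFP. Cluster 14, which held Zic1 most often among the neuroblast-like clusters, had eYFP in 37.4% of its cells, against 65.1% to 83.5% in the other 4.

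In progenitor-like cells the order was alike: 58.9% with eYFP for Zic1 against 86.5% without, 63.3% and 86.7% for Zic2, 64.2% and 87.3% for Zic5, and 87.1% and 85.0% for Gsx2. Nkx6-2 (69.9% and 86.5%) and Nkx2-4 (62.5% and 86.2%) were also lower, but both were more frequent in the old libraries, where eYFP was less frequent. Cluster 12, which held 62 of the 93 progenitor-like cells with Nkx6-2, also had eYFP less often than the other 3 progenitor-like clusters in every library, with 76.4% in WT young, 74.6% in KO young, 21.2% in WT old and 46.3% in KO old, and the part of the cluster in these shares was not tested. Within the KO old library, Nkx6-2 gave 45.5% and 75.1%, Nkx2-4 61.9% and 73.2%, and within WT young Nkx6-2 gave 88.6% and 89.4%. In quiescent NSC-like cells Gsx2 gave 60.0% and 45.3%. In astrocyte-like cells, 6.41% to 6.76% of those without a UMI of a given member had eYFP, and the intervals of those with a UMI overlapped that range for all 10 genes. Cells of 1 mouse and library are not independent, so these shares were not tested.

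**Figure D5:**
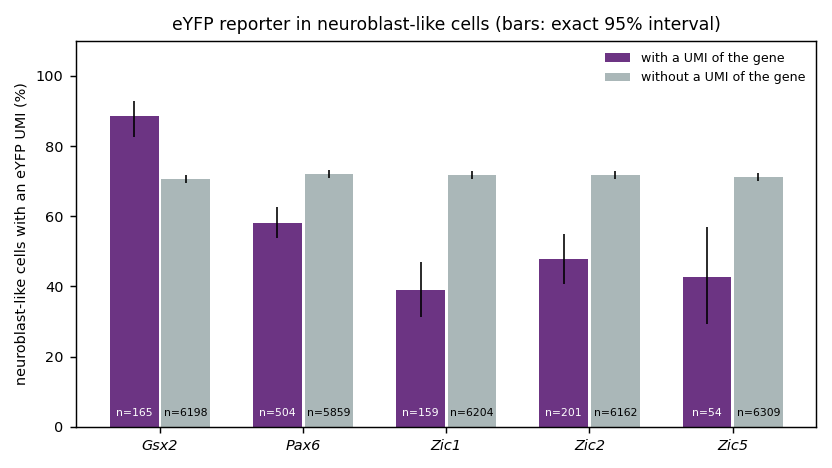
Share of neuroblast-like cells with an eYFP UMI (%, y axis) among cells with (purple) and without (grey) a UMI of Gsx2, Pax6, Zic1, Zic2 and Zic5, over all 4 libraries, with exact 95% binomial intervals as bars and the number of cells in each bar. The share is 39.0% with Zic1 and 88.5% with Gsx2, while the grey bars lie between 70.6% and 72.2%.

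In neuroblast-like cells the hashtags gave no clear division by tissue, with few tagged cells. Zic1 had a UMI in 2.67% of 375 vSVZ and 3.33% of 210 RoB cells, Zic2 in 3.20% and 5.71%, and Pax6 in 8.27% and 10.5%. Gsx2 was found in 1.07% of the vSVZ cells (4 cells) and in 0 of the RoB cells, which allows up to 1.43%. The vSVZ share of Gsx2 lay below that limit, so a difference was not detectable at this depth.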

How the data were processed

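The authors deposited 1 unfiltered matrix of UMI counts by gene and barcode for the 4 expression libraries, and counts of 4 hashtags by barcode. The authors removed index-hopped reads, used kallisto and bustools for genes and CITE-seq-Count for hashtags; the submitters' processing notes also name Scanpy 1.6.0 and GRCm38. The strand setting, and whether unspliced reads were included, are not given in the sources used here. Of 9 samples, 1 had no group in its labels and was not used. The 32287 IDs were matched by ID to GENCODE vM21 (GRCm38), which held 32235 of them.

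The 10 members and the gene lists were chosen with earlier results of these data known. A cell needed 100 to 6000 genes, 1000 to 20000 UMIs and less than 10% mitochondrial UMIs, and predicted doublets (Scrublet method, scanpy 1.11.5; 29 to 176 per library) were removed. UMIs in kept cells were 66.3% to 83.0% of each library. For each library, hashtags were assigned by a multinomial mixture model (5 components) started from near-empty barcodes (5 to 100 UMIs), taking the highest posterior; the hashtag number was read as the mouse within its group. Clusters (2000 variable genes without the members and related genes, 50 principal components, 15 neighbours, leidenalg 0.10.2 at resolution 1) were named from markers where at least 3 markers and at least 50% were raised, and kept a name only with at least 50 cells. UMIs were summed per mouse and tissue for edgeR 4.0.16 under R 4.3.3 (filterByExpr, TMM, quasi-likelihood F test, Benjamini-Hochberg adjusted p under 0.05 over all genes tested); each SE was taken as the size of the log2 fold change over the root of F. The test was tried on simulated data. All 10 members are named in every comparison, and related genes of 5 lists are counted and named where they passed, except for some that are not reported here. Intervals are exact at 95% and cover counting error only, and a count of 0 was read against a floor of 3 counts. Expected pairs were taken within 5 depth strata of each library. No paired analysis was possible because mice of different groups only share a hashtag number, not an origin; vSVZ and RoB of a mouse share the animal, and the mouse was a block there. DESeq2 1.42.0, other size factors, no filter, a strict hashtag posterior of 0.99, resolution 0.5, kept doublets, classes left out, thinning to 1000 UMIs and leaving out each mouse were alternatives. The 2 mice of a group shared 1 reaction, so p-values measure the spread between mice within reactions.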

Additional observations from a re-analysis of the deposited data

Results flagged for a closer look

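In RoB astroglia, the change of Nkx6-2 with age differed between the genotypes by the test of the interaction itself (log2 -3.36 ± 0.61, edgeR adjusted p = 0.00601, 2 mice per group). Nkx6-2 rose in WT from 7.18 and 12.2 to 25.6 and 78.7 CPM and was at 140 and 214 CPM in KO young and 86.4 and 93.3 CPM in KO old mice. The adjusted p was 2.71e-07 to 1.00 over 17 alternatives, of which 11 kept the call.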

How the results depend on the processing

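Of 186 alternatives for the log2 change of a called member, 141 kept direction and call, 43 lost the call and 2 turned the direction, both for Nkx6-2 between tissues (0.63 without cluster 16 and 0.20 without clusters 16, 19 and 20). Members called between vSVZ and RoB (3) were 5 without the low-count filter, 1 with the strict hashtag call and 1 without clusters 16, 19 and 20. Without the replicate block, mouse, 2 were called (Pax6 and Zic1). Over all genes, 1368 of 18026 were called between tissues without the low-count filter and 901 of 6247 with the strict hashtag call. The counts were 541 of 7065 without clusters 16, 19 and 20 and 761 of 8074 without the block. For age in vSVZ, 4 in WT and 2 in KO became 0 and 0 with the strict hashtag call, 0 and 0 without the quiescent NSC-like cluster and 1 and 1 in that cluster alone, 5 and 1 at resolution 0.5, and 5 and 3 without the low-count filter; in that cluster alone genotype in old mice gave 1. In RoB, age in WT (1) gave 0 with the strict hashtag call, and the interaction (1) gave 0 with DESeq2 and 0 with the strict hashtag call; both gave 0 without cluster 16 and 0 without clusters 16, 19 and 20, and genotype in young mice (1) gave 0 without those 3 clusters. Leaving out single mice gave 2 to 4 members between tissues, 0 to 4 for age in WT and 1 to 3 for age in KO in vSVZ, 0 to 1 for each of age in WT, age in KO, genotype in old mice and the interaction in RoB, and the number of the full data in the comparisons not named. The restrictions to or without single clusters were chosen after seeing the data. All genes called for age in vSVZ (WT and KO) were 411 and 34 of 8191 with the strict hashtag call. They were 298 and 138 of 9104 without the quiescent NSC-like cluster and 52 and 43 of 6615 in it alone. At resolution 0.5 they were 1898 and 417 of 10390. In RoB, age in WT and the interaction stood beside 20 and 4 of 5295 genes with the strict hashtag call. Of the differences in share 95 of 100 and of the pair ratios 84 of 88 alternatives stayed within the spread. Only 5 of 83 pairs kept 2 expected cells after thinning. With 43 to 130 RoB astroglia per mouse, Nkx2-1, Nkx2-4, Sfta3-ps, Gsx2 and Emx1 could not be tested there, and 31.2% of cells carried a hashtag.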
